A study of Mus musculus with 12 samples.

Results

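miR-150 and miR-181a are microRNAs (miRNAs) best known from lymphocytes, and their levels were followed here through the maturation of mouse granulocytes. They were taken by name from the array table, as miR-150 and every guide-strand assay whose name starts with miR-181. This gave 2 assays of the 269 that could be named and of 593 in all, because miR-181a was the 1 miR-181 assay with a name. miR-181b, miR-181c and miR-181d were not analysed here.

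The samples were 4 populations sorted from the bone marrow of C57BL/6 mice, each read as whole cell, cytoplasmic and nuclear RNA, which makes 12 samples with 1 sample for each population and kind of RNA. LSK cells (hemopoietic stem and progenitor cells) carry Sca1 and cKit and were sorted without B220, Ter119, CD3, Gr-1 or CD11b. Promyelocytes, myelocytes and granulocytes are the successive stages of granulocyte maturation and were sorted without lineage markers that included B220, CD3 and Sca1, using Gr-1, cKit, CD34 and CD16/32. The labels name no treatment or transgene for any group, and the age, sex and number of the animals, and whether animals were pooled, are not given in the sources used here. LSK is a mixed gate that holds multipotent progenitors besides stem cells.

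Every miRNA was measured in its own well by TaqMan low-density array (TLDA) RT-qPCR. The readout is the cycle threshold (CT), the cycle at which the product crosses a fixed line, so more template gives a lower CT and 1 cycle stands for a 2-fold difference at full efficiency. Wells without a product are listed at 40, and a CT above 30 is taken as unreliable. Between 199 and 294 assays per sample gave a product, fewest in the nuclear samples. With 1 sample and 1 well behind each value there is no replicate error and no test between stages, and differences are described against a 2-fold limit, a log2 difference of 1. The RNA came from sorted bulk populations, so fewer cells with a miRNA and less of it per cell cannot be told apart.

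A miRNA guides the silencing complex to messenger RNAs that pair with its seed, bases 2 to 8 from its 5′ end. miR-150 is abundant in mature B and T cells and low in their progenitors, and its best known target is the transcription factor gene Myb, which early hemopoietic progenitors need. miR-181a is abundant in the thymus, where it tunes the signal strength of the T cell receptor, and it can raise B cell output when it is expressed in marrow progenitors. Both genes are therefore read as lymphoid regulators, although both miRNAs are also made in myeloid cells.

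The mature miR-181 sequences are shown first because the assay name covers 2 genes and because its relatives differ from it by few bases. Capitals mark the seed, and the sequences run 5′ to 3′ as RefSeq gives them on build GRCm38.p6.
miR-181a-5p: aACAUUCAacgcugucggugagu
miR-181b-5p: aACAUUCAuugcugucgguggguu
miR-181c-5p: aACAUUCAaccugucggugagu
miR-181d-5p: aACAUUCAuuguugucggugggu

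miR-181a-5p is 23 bases long and is encoded without any difference by Mir181a-1 at chr1:137966468-137966490 and by Mir181a-2 at chr2:38852741-38852763, both on the plus strand, so its CT is the sum of both genes. In the annotation Mir181a-1 is followed by Mir181b-1, with Ptprc, the gene of the leukocyte antigen CD45, nearby, and Mir181a-2 lies inside Nr6a1 and its antisense gene Nr6a1os. miR-181c-5p is 1 base change or deletion away from miR-181a-5p, and miR-181b-5p and miR-181d-5p are each 4 changes away. Of 1679 mature names in the RefSeq table, 4 carry this seed, and they are the 4 printed above. Whether the miR-181a assay also reads miR-181c was not tested.

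miR-150 was lowest in promyelocytes in every kind of RNA and came back in myelocytes. In whole cell RNA LSK cells read a CT of 25.1, promyelocytes 28.8, myelocytes 25.6 and granulocytes 25.8. The promyelocyte sample stood 2.93 cycles or more behind each of the other 3 samples, while the unscaled CT values of LSK, myelocytes and granulocytes lay within 0.71 cycles of each other. Ranked by CT among the named assays, miR-150 took place 20 of 201 detected for LSK, 74 of 203 for promyelocytes, 33 of 211 for myelocytes and 41 of 220 for granulocytes. The ranks compare wells of different assays and are no measure of copies, but they put miR-150 among the earliest CT values at 3 stages and nearer to the middle of the list in promyelocytes.

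The whole cell differences were scaled by the average of the 3 assays that close card B. The authors' own whole cell differences carry the same shift between stages but a further constant factor, which was not applied here. On this scale miR-150 was 14.9-fold lower in promyelocytes than in LSK, a log2 difference of -3.90. Of 104 named assays that read under 30 at either stage, 17.3% were lower in promyelocytes by 2-fold or more, and the median difference was 0.43. The assays that differed more in this direction were miR-466d-3p, miR-125a-5p and miR-31, each with a promyelocyte CT above 30. miR-150 itself stayed under 30 in both samples.

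From promyelocytes to myelocytes the whole cell difference of miR-150 turned round, to 9.15-fold higher or 3.19 on the log2 scale. Here 42.0% of the 112 assays were higher by 2-fold or more and the median was 0.75. Relative to that median miR-150 was still 2.44 higher. With the mean CT the difference was 2.68 and with the median CT 2.01. Granulocytes were 5.68-fold above promyelocytes, a log2 difference of 2.51 that came to 1.76 with the median CT, in a comparison where 52.8% of 123 assays were higher by 2-fold or more. Myelocytes and granulocytes differed by -0.69, under the 2-fold limit, where 6.67% of 120 assays were lower by 2-fold or more. Granulocytes ended 2.62-fold below LSK, a log2 difference of -1.39, and 16.1% of 124 assays were lower by 2-fold or more. This last difference moved with the scaling, from -0.71 without any, short of 2-fold, to -1.92 with the median CT and -2.22 with the mean CT of the named assays. Myelocytes against LSK came to -0.70 as scaled here, and to -1.55 with the mean and -1.67 with the median CT, both past 2-fold. How far whole cell miR-150 came back to its LSK level thus depends on the scaling. In cytoplasmic RNA the same comparison gave -1.17 unscaled, where 33.3% of 123 assays were lower by 2-fold or more. It gave -1.06 there with the mean and -1.16 with the median CT.

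**Figure D1:**
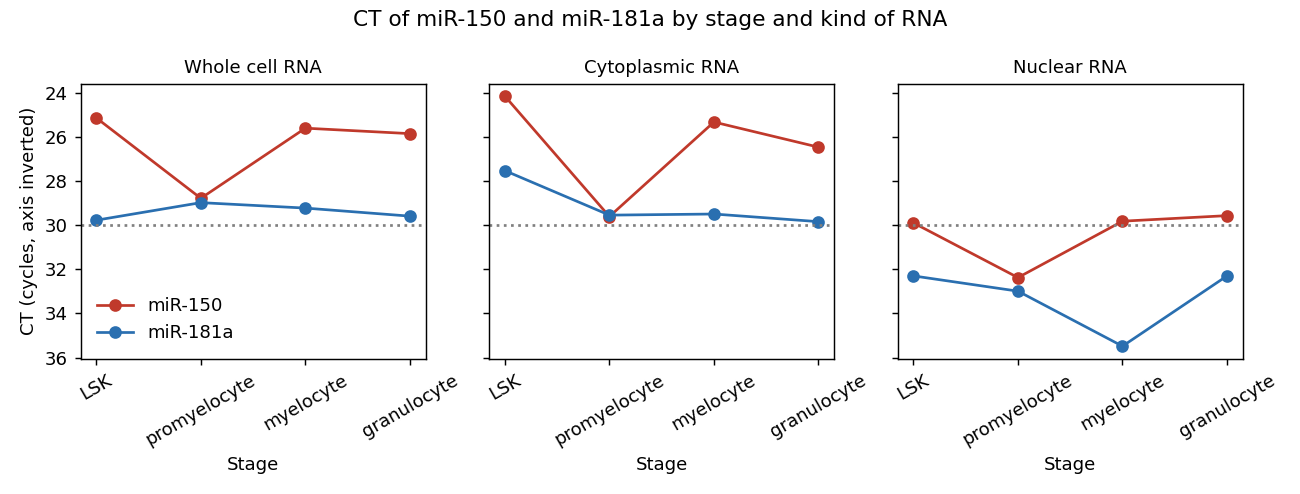
CT in cycles (inverted axis) of miR-150 and miR-181a at the 4 stages in whole cell, cytoplasmic and nuclear RNA; each point is 1 well of 1 sample and the dotted line is a CT of 30. miR-150 has its highest CT in promyelocytes in each panel, 28.8, 29.6 and 32.4, and miR-181a stays between 29.0 and 29.8 in whole cell RNA.

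Cytoplasmic RNA gave the same order with larger steps. For miR-150 LSK cells read a CT of 24.1, promyelocytes 29.6, myelocytes 25.3 and granulocytes 26.5. The promyelocyte sample again stood apart from the other 3, and LSK held the lowest CT. Without scaling, promyelocytes were 44.1-fold below LSK (log2 difference -5.46) and myelocytes 19.5-fold above promyelocytes (4.29). The cytoplasmic promyelocyte sample had later CT values across the card, since 64.0% of 111 assays were lower in it than in LSK by 2-fold or more, with a median of -1.26, and 54.5% of 110 assays were higher again in myelocytes. Relative to the median of the card the differences of miR-150 were -4.20 for promyelocytes against LSK and 3.11 for myelocytes against promyelocytes. Granulocytes were 3.15 above promyelocytes on the log2 scale, where 58.2% of 110 assays were higher by 2-fold or more. Granulocytes were 2.20-fold below myelocytes in the cytoplasm, with 11.0% of 109 assays lower by 2-fold or more, and 4.97-fold below LSK, with 34.7% of 124 assays lower by 2-fold or more. The difference from myelocytes was -1.19 on the log2 scale with the mean CT and -0.90, short of 2-fold, with the median CT.

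When both kinds of RNA were scaled by the mean CT of their named assays under 30 in all 4 stages, the difference of miR-150 between promyelocytes and LSK was -4.23 in whole cell and -4.29 in cytoplasmic RNA. These values lay 0.06 apart, against an SD of 0.69 for the same difference over the 71 assays under 30 in all samples concerned. An assay that differs much can pass 30 in promyelocytes and leave this group, so no rank is read from it. Over all assays tested, 3 of 104 in whole cell and 6 of 111 in cytoplasmic RNA differed more than miR-150 in this direction, the cytoplasmic ones being miR-466d-3p, miR-34a, miR-125a-5p, miR-224, miR-99b and miR-10b. For myelocytes against promyelocytes the values of miR-150 were 2.68 and 3.23 with the mean CT, and 5 of 112 assays in whole cell and 5 of 110 in cytoplasmic RNA were farther up. Whole cell and cytoplasmic RNA of a stage are different samples and not replicates of a stage, and the SD holds the differences of assays between compartments as well as the error of single wells.

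**Figure D2:**
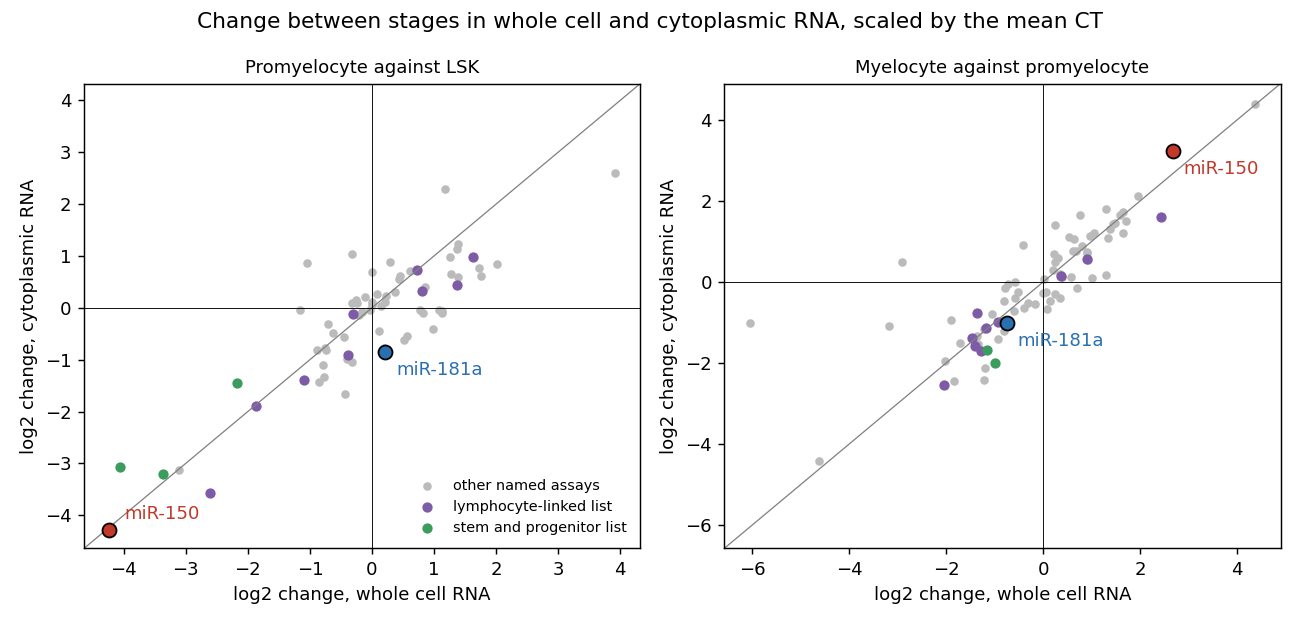
Log2 difference in whole cell RNA (x axis) against cytoplasmic RNA (y axis) for promyelocytes against LSK and for myelocytes against promyelocytes, both scaled by the mean CT; points are the named assays under a CT of 30 in all samples concerned, and the grey line marks equal values. miR-150 lies on or near the line at -4.23 and -4.29 on the left and at 2.68 and 3.23 on the right, while miR-181a lies off the line on the left at 0.21 and -0.85.

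In nuclear RNA miR-150 read 29.9 cycles for LSK, 32.4 for promyelocytes, 29.8 for myelocytes and 29.6 for granulocytes. The promyelocyte sample was again the low one, and the other 3 lay within 0.33 cycles. Promyelocytes were 5.58-fold below LSK, where 29.4% of 51 assays were lower by 2-fold or more, and myelocytes 5.89-fold above promyelocytes, where 29.8% of 47 assays were higher. The promyelocyte CT is above 30, so the size of both nuclear differences is limited by detection. Granulocytes against myelocytes gave 0.25 for nuclear miR-150 without scaling and -1.02, past 2-fold lower, with the mean CT. Unscaled, 78.9% of 57 assays were higher in granulocytes by 2-fold or more.

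By unscaled CT miR-181a was nearly level across the stages in whole cell RNA, but scaled values fell in the later stages. Its whole cell CT was 29.8 for LSK, 29.0 for promyelocytes, 29.2 for myelocytes and 29.6 for granulocytes. All 4 values lay within 0.80 cycles, against a median span of 2.01 cycles for the 73 named assays under 30 in all 4 stages. The scaled log2 differences were 0.55 for promyelocytes against LSK, -0.24 for myelocytes against promyelocytes and -0.80 for granulocytes against myelocytes, all under 2-fold. With the median CT myelocytes against promyelocytes came to -1.42, past 2-fold. Granulocytes against LSK gave -0.49 as scaled here, 0.18 without scaling, -1.33 with the mean and -1.02 with the median CT. For granulocytes against promyelocytes miR-181a came to -1.04, just past 2-fold (2.06-fold lower), with 21.1% of 123 assays lower by 2-fold or more. That value was -0.61 without scaling, -1.54 with the mean CT and -1.79 with the median CT. Since most of the card was higher in the later stages, with a median of 1.06 for granulocytes against promyelocytes, miR-181a came to -2.10 relative to the median there.

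In the cytoplasm miR-181a was highest in LSK. LSK cells read 27.5 cycles, promyelocytes and myelocytes 29.5 each and granulocytes 29.8. By unscaled CT the 3 later stages lay within 0.35 cycles of each other and the LSK sample stood apart from them. Unscaled, promyelocytes were 4.05-fold below LSK (log2 difference -2.02) and granulocytes 4.97-fold (-2.31). Myelocytes differed from LSK by -1.97, where 33.3% of 123 assays were lower by 2-fold or more. The value for promyelocytes changed with the scaling, since with the mean CT it was -0.85, under 2-fold. With the same scaling granulocytes against LSK came to -2.25 and myelocytes against LSK to -1.85, both past 2-fold. Against promyelocytes it gave -1.005 for myelocytes and -1.40 for granulocytes, so the later stages were then not level.

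Whole cell and cytoplasmic RNA thus placed LSK differently for miR-181a. In LSK its whole cell CT was 2.25 cycles later than its cytoplasmic CT, against a median of 1.43 cycles over the named assays, while for miR-150 the gap was 0.99 cycles. In promyelocytes the gap of miR-181a was -0.57 cycles, beside a median of -0.59. After scaling by the mean CT, the promyelocyte against LSK difference of miR-181a in whole cell RNA exceeded that in cytoplasmic RNA by 1.06, beside the SD of 0.69 over the 71 assays.

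Nuclear miR-181a read 32.3 cycles for LSK, 33.0 for promyelocytes, 35.5 for myelocytes and 32.3 for granulocytes, all above 30. LSK and granulocytes had almost the same CT and myelocytes the latest. These values are given for completeness, since no stage reached the range taken as reliable.

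Both miRNAs had an earlier CT in cytoplasmic than in nuclear RNA at every stage, as most named assays did. The labels state 100 ng of RNA for each reaction, whereas the study's own description of these plots speaks of cell-equivalent volumes, so a nuclear to cytoplasmic ratio is per amount of RNA under the labels and per cell under the other reading. Nuclear minus cytoplasmic CT of miR-150 was 5.75 cycles for LSK, 2.77 for promyelocytes, 4.50 for myelocytes and 3.11 for granulocytes. Nuclear RNA was lower by 2-fold or more in 96.2% of 106 assays with LSK cells, 92.0% of 87 with promyelocytes, 99.0% of 104 with myelocytes and 97.1% of 103 with granulocytes. The medians of these assays were 4.34, 2.88, 4.18 and 2.62 cycles in the same order, and miR-150 lay at most 0.48 cycles from the median in the 3 granulocytic stages.

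In LSK miR-150 was 1.41 cycles beyond the median, farther to the cytoplasmic side than 91 of 106 assays, with a nuclear level of 1.86% of the cytoplasmic. With the division by 3 that the authors' ratios carry, this level becomes 0.619%. For miR-181a the difference was 4.78 cycles for LSK, 3.45 for promyelocytes, 6.00 for myelocytes and 2.46 for granulocytes. It departed most from the median in myelocytes, by 1.82 cycles, and this value rests on the nuclear CT of 35.5. With the CT limit used here, neither miRNA was nearer to the nuclear side than the median by more than 0.16 cycles at any stage. This bound moved with the limit. Relative to the median, miR-150 in promyelocytes came to -0.23, -0.39 and -0.50 cycles at CT limits of 28, 32 and 35. For miR-181a in granulocytes the values were -0.25, -0.14 and -0.34 in the same order, a minus sign marking the nuclear side.

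**Figure D3:**
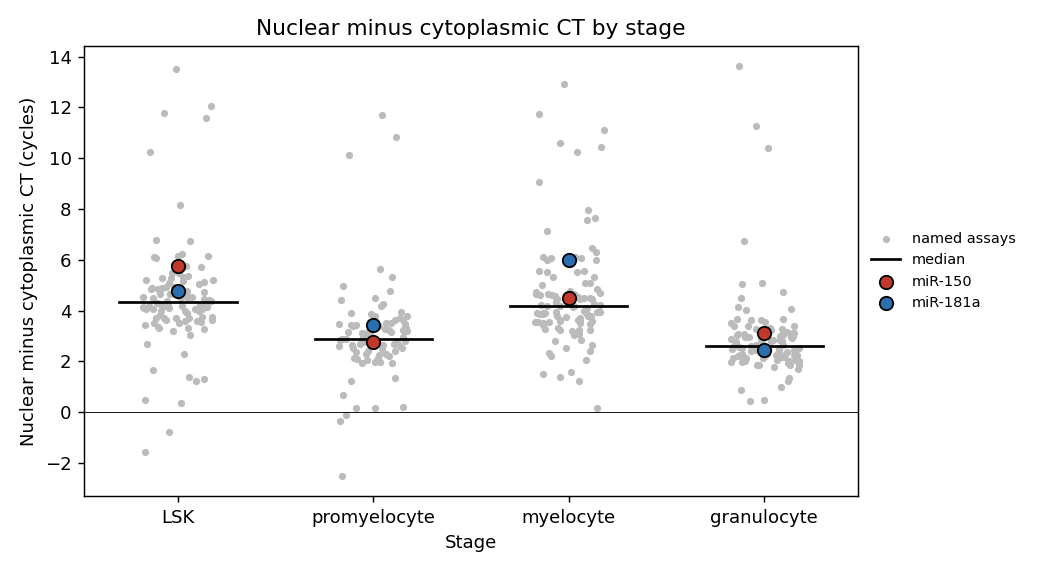
Nuclear minus cytoplasmic CT in cycles at each stage; grey points are named assays that read under 30 in the cytoplasm, spread sideways for visibility and including wells listed at 40 in the nucleus, and bars are their medians. miR-150 at 5.75 in LSK and miR-181a at 6.00 in myelocytes lie above the bars at 4.34 and 4.18, and the other values of both lie at most 0.57 cycles from them.

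The 5 assays whose pattern over 8 samples (4 whole cell and 4 cytoplasmic, scaled by card B and by the mean CT and each centred on its own mean) was most like that of miR-150 were miR-146a, miR-450a-5p, miR-503*, miR-342-3p and miR-30a, out of 137 assays under a CT of 35 in all 8. Pearson's r was 0.88 for miR-146a, 0.86 for miR-450a-5p, 0.84 for miR-503*, 0.82 for miR-342-3p and 0.79 for miR-30a. Over the 8 samples miR-450a-5p read between 31.1 and 34.2 and miR-503* between 29.97 and 32.7. Their likeness therefore rests wholly or largely on CT values above 30, the range taken as unreliable. The points are 4 stages read in 2 kinds of RNA, with 1 sample each, so r is a description. miR-146a, a feedback inhibitor of NF-κB signalling, was also the nearest by distance, with a root mean square gap of 0.73 on the log2 scale. Its whole cell CT was 25.3 for LSK, 27.4 for promyelocytes, 24.4 for myelocytes and 25.9 for granulocytes.

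miR-342-3p, which is also enriched in lymphocytes, had a whole cell CT of 28.8, 29.7, 27.7 and 28.5 in the order of maturation and a cytoplasmic CT of 27.96, 30.4, 28.2 and 29.3. By CT it was lowest in promyelocytes in both kinds of RNA, as miR-150 was, although with the mean CT its cytoplasmic level was slightly lower in granulocytes. Around promyelocytes it had log2 differences of -1.13 and 1.96 in whole cell and -2.40 and 2.13 in cytoplasmic RNA. The step of miR-150 into promyelocytes was the wider in both kinds of RNA. With the 4 whole cell samples alone, 1 of the 5, miR-503*, was again among the 5 nearest by r.

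For miR-181a the 5 were let-7c, let-7d, miR-101a, let-7e and miR-20a*, with r of 0.99, 0.93, 0.92, 0.90 and 0.90. let-7c followed it closest, at a root mean square gap of 0.12 on the log2 scale, with a whole cell CT of 28.6, 27.9, 28.4 and 28.6 and a cytoplasmic CT of 26.9, 28.9, 28.6 and 29.2 in the order of maturation. Of the 5, 3 were again among the nearest by root mean square distance and 2 with the whole cell samples alone. let-7c too was nearly level in whole cell RNA by unscaled CT and highest in LSK in the cytoplasm. Scaled and centred, its whole cell level was 0.56 in promyelocytes and -0.60 in granulocytes, beside 0.46 and -0.58 for miR-181a. miR-150 and miR-181a did not follow each other, with an r of 0.02 over the same 8 samples.

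**Figure D4:**
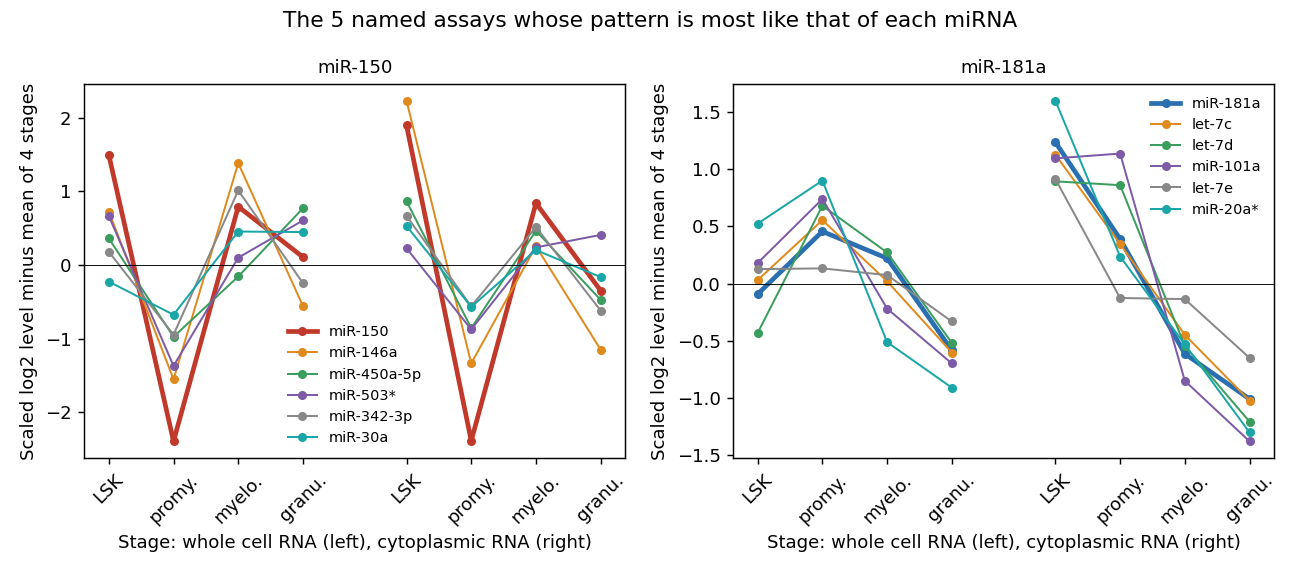
Scaled log2 level minus the mean of the 4 stages, in whole cell (left group of 4) and cytoplasmic RNA (right group of 4), for miR-150 and miR-181a (thick lines) and the 5 named assays most like each by Pearson's r. All 6 lines of the left panel are lowest in promyelocytes, except that miR-342-3p is slightly lower in granulocytes in the cytoplasm, and let-7c runs beside miR-181a in the right panel.

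A list of 15 other miRNAs with known roles in lymphocytes was read beside the pair. It holds miR-342-3p, miR-155, miR-146a, miR-142-5p, the miR-29 family, the members of the miR-17-92 cluster, miR-34a and miR-326. Of the 11 under a CT of 30 in whole cell LSK or promyelocytes, 5 were higher in promyelocytes by 2-fold or more, beside 33.7% of all 104 assays, and 3 were lower, beside 17.3%, with a median of 0.03 against 0.43 for all. Scaled by the mean CT, 3 were higher and 4 lower, beside 26 and 22 of all 104 assays. The 3 lower ones were miR-155, which supports germinal centre and T cell responses, miR-146a and miR-342-3p. The 5 higher ones, miR-17, miR-18a, miR-19a, miR-19b and miR-20a, all come from the miR-17-92 cluster, which promotes survival and proliferation of B cell precursors. In the cytoplasm, where no scaling was used, 7 of 12 list members were lower in promyelocytes than in LSK by 2-fold or more, beside 64.0% of all assays. Scaled by the mean CT, 5 of the 12 were lower, beside 27.9%.

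From promyelocytes to myelocytes 4 of 12 list members were higher by 2-fold or more, beside 42.0% of all 112 assays, and 1, miR-155, was lower, beside 12.5%. The 4 higher ones were miR-146a (2.94), miR-142-5p (2.15), miR-342-3p (1.96) and miR-29c (1.42). Members of the same cluster, miR-17, miR-18a, miR-19a, miR-19b, miR-20a and miR-92a, came to between -0.95 and -0.42, short of 2-fold. The median of the list was -0.54, within the range of this cluster, against 0.75 for all. With the mean CT 3 of the 12 were higher and 6 lower, beside 29.5% and 25.9% of all assays. Those lower were miR-155 and the members of this cluster except miR-19b. Here miR-155 parted from miR-150: its whole cell CT was 26.1 for LSK, 27.4 for promyelocytes, 28.9 for myelocytes and 30.1 for granulocytes, later at each stage, whereas miR-150 returned. In cytoplasmic RNA without scaling 5 of 12 list members were higher in myelocytes by 2-fold or more, beside 54.5% of all assays, and 1 was lower, beside 8.18%, with a median of 0.18 after -1.69 for the first step. The mean CT turned this to 3 higher and 5 lower, beside 32.7% and 24.5% of all 110 assays. With that scaling these cytoplasmic medians were -0.87 and -0.52, and the whole cell median of the first step was -0.30.

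miRNAs that mark other states were read in the same samples, from lists chosen with earlier results of these data known. miR-223, the granulocytic miRNA, had a whole cell CT of 24.0 for LSK, 19.5 for promyelocytes, 17.3 for myelocytes and 16.4 for granulocytes, in the labelled order of maturation. All 6 stem and progenitor miRNAs under a CT of 30 in LSK or promyelocytes were lower in promyelocytes by 2-fold or more. This stands beside 17.3% of all 104 assays, with a median of -2.67 against 0.43 for all. Of the 6, miR-125a-5p, miR-125b-5p and miR-130a had promyelocyte CT values of 34.8, 30.9 and 30.1. These entered the count only through LSK, the stage where they were high. Without scaling 5 of the 6 passed 2-fold. miR-126-3p differed by -3.04 and miR-196b by -3.73. In each of whole cell and cytoplasmic RNA, 3 of the list read under 30 in promyelocytes or myelocytes, and none of them was higher in myelocytes by 2-fold, beside 42.0% of all assays in whole cell and 54.5% in cytoplasmic RNA. Of the erythroid markers miR-486 was listed at 40 in whole cell LSK and promyelocytes and at a CT of 31.5 in myelocytes and 31.7 in granulocytes, and miR-451 had no named assay.

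Of the stromal and endothelial markers, miR-143 and miR-145 were at 40 in whole cell LSK and promyelocytes, and miR-199a-3p stayed above 32 throughout whole cell RNA. The fourth, miR-126-5p, read 26.2, 28.8, 29.3 and 29.7 in the order of maturation. Its partner arm miR-126-3p is on the stem and progenitor list. Whole cell promyelocytes differed from LSK by -2.78 for miR-126-5p and -3.04 for miR-126-3p. miR-486 and miR-145 therefore became detectable in the same whole cell samples in which miR-150 returned, though near a CT of 32, and miR-143 was at 34.5 in whole cell myelocytes and at 40 in the other whole cell samples. In the cytoplasm miR-486 was at 40 in 3 stages and at 33.6 in granulocytes. Cytoplasmic miR-145 was already read before miR-150 returned, at 36.4 for LSK cells and 36.3 for promyelocytes. It was later for myelocytes, at 37.7, and earliest for granulocytes, at 33.3. Cytoplasmic miR-143 read 36.1, 35.2 and 36.3 over the first 3 stages and 40 at the last. Nuclear miR-145 read 34.8 for promyelocytes and 40 otherwise. The part of these markers in the level of miR-150 was not tested. The lymphocyte-linked miRNAs read here are also made by myeloid or progenitor cells, and the part of any residual lymphocytes in the level of miR-150 was not tested.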

How the data were processed

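RNA from 4 sorted populations (whole cell, cytoplasmic and nuclear; 12 samples) was reverse transcribed with rodent Megaplex primers, 100 ng each per the labels, and read on TaqMan rodent microRNA A and B cards. The authors set CT with their instrument's software and deposited the raw scores, in cycles, without normalization, with undetermined wells at 40; no score is a mean of samples. Each assay has 1 well per sample, which sets the precision.

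The table numbers its assays. Names were given where 8 cytoplasmic and nuclear CT values equalled those printed with the study within 0.0005 cycles (246 assays), or else where whole cell differences fell uniquely, within 0.002, on the line fitted to its printed differences (23 assays). Both members were named in the second way. For miR-150, 7 of 8 printed CT values were also equal; the printed nuclear LSK value, as read here, has 2 digits in another order, while the ratio printed with it fits the deposited value, which was used. No CT printed for miR-181a was matched. Members and lists were chosen with earlier results of these data known.

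Log2 differences are CT differences with the sign turned. Whole cell values were scaled by the last 3 assays of card B, and the fractions were not scaled unless stated. Alternatives were no scaling, the mean or median CT, 1.9-fold per cycle, other CT and fold limits, wells at 35, all assays, other measures of likeness, a ratio divided by 3 and a wider name tolerance (0.005). Named miRNAs are the members, the 5 nearest patterns of each and the fixed lists; those with larger differences than miR-150 were added after their values were seen. No test was possible with 1 sample per group. Naming and calls were checked on simulated data. The tools were matplotlib 3.10.9, scipy 1.17.1, pandas 2.3.3 and numpy 2.4.6 under Python 3.11.15. Sequences are from RefSeq (1 of the 2 members matched).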

Additional observations from a re-analysis of the deposited data

Results flagged for a closer look

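With whole cell values scaled by card B and fractions unscaled, several steps ran in opposite directions in different kinds of RNA of the same stages, each with 1 sample, and the differences between kinds of RNA were not tested. For miR-181a, promyelocytes against LSK gave a log2 difference of 0.55 in whole cell, -2.02 in cytoplasmic and -0.69 in nuclear RNA. Myelocytes against promyelocytes gave -0.24, 0.051 and -2.50, and granulocytes against myelocytes gave -0.80, -0.35 and 3.19, the nuclear values all resting on a CT above 30. For miR-150, granulocytes against myelocytes gave -0.69 in whole cell and -1.14 in cytoplasmic RNA beside 0.25 in nuclear RNA. With the mean CT in all 3 kinds of RNA, 2 of these 4 steps ran one way: myelocytes against promyelocytes for miR-181a (-0.75, -1.005 and -2.44) and granulocytes against myelocytes for miR-150 (-0.67, -1.19 and -1.02). In the unscaled nuclear comparison of granulocytes with myelocytes 78.9% of 57 assays were higher in granulocytes by 2-fold or more, with a median of 1.35, and 3 of the 57 had a lower value than miR-150.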

How the results depend on the processing

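The low level of miR-150 in promyelocytes kept its direction and passed 2-fold against LSK and against myelocytes in all 3 kinds of RNA with the mean CT and with 1.9-fold per cycle, and in whole cell RNA also without scaling, with the median CT and at the 1.5-fold and 3-fold limits. Its whole cell difference of granulocytes from LSK was -0.71 without scaling, -2.22 with the mean and -1.92 with the median CT, and missed a 3-fold limit at -1.39. A 1.5-fold limit was passed by granulocytes against myelocytes, at -0.69 for miR-150 and -0.80 for miR-181a. Whole cell miR-181a was less stable: granulocytes against LSK gave 0.18 without scaling, -1.33 with the mean and -1.02 with the median CT, and myelocytes against promyelocytes gave -1.42 with the median CT. With the mean CT, cytoplasmic miR-181a gave -0.85 for promyelocytes against LSK and -1.005 for myelocytes against promyelocytes, and in nuclear RNA granulocytes against myelocytes gave -1.02 for miR-150, and granulocytes against LSK -0.85 for miR-150 and -1.18 for miR-181a. Dividing the nuclear to cytoplasmic ratio by 3, as the study's own ratios do, only widens differences that already favour the cytoplasm and says nothing of their stability.

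With the wider name tolerance 267 assays had a name, both members among them. The number of whole cell assays lower in promyelocytes than in LSK (18) was 9, 29 and 48 at CT limits of 28, 32 and 35. That of assays lower in granulocytes than in LSK (20) was 40 at 35, 31 with the mean CT, 12 at 3-fold and 12 without scaling, and that of assays higher in myelocytes than in promyelocytes (47) was 88 at 35. In the cytoplasm, assays lower in promyelocytes than in LSK (71) numbered 134 at 35, 31 with the mean CT and 45 at 3-fold, those higher in myelocytes than in promyelocytes (60) 99 and 36 at 35 and with the mean CT, and those lower in granulocytes than in LSK (43) 81 at 35. With the mean CT the lymphocyte-linked medians became -0.30 and -1.06 in whole cell and -0.52 and -0.87 in cytoplasmic RNA for the first and second step, and the stem and progenitor medians of the second step -1.16 and -2.02. The scalings set the level of every assay at once, and other causes were not tested. No paired analysis was possible because each group has 1 sample and the labels carry no replicate number. Depth is limited to 1 well per value, and a CT above 30 by detection.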

Other observations

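Among assays that read under a CT of 35 throughout, few shared the return of miR-150 after promyelocytes. A deep drop in promyelocytes can take an assay past 35 and out of this count, so the count can miss such assays. miR-107 was left out in this way, with cytoplasmic promyelocytes and granulocytes at 40. Of 138 named assays under a CT of 35 in all whole cell and cytoplasmic samples, 8 were lower by 2-fold or more in promyelocytes than in both LSK and myelocytes in both kinds of RNA. They were miR-10b, miR-31, miR-146a, miR-150, miR-322*, miR-342-3p, miR-350 and miR-503*, a group picked after the values were seen and given without a test. Scaling the cytoplasm by its mean CT gave the same count. By whole cell RNA alone 11 assays did so, and miR-296-5p had the widest return of them, 3.92. Among the 8, the whole cell return was 3.19 for miR-150, 2.95 for miR-31, 2.94 for miR-146a and 2.80 for miR-350. In the cytoplasm the return of miR-10b was wider, 4.39 against 4.29 for miR-150, but it starts from a promyelocyte CT of 34.2. Whole cell promyelocytes read 32.4 for both miR-31 and miR-503*, also above 30, so the size of these returns is limited by detection. miR-150 and miR-146a read under 30 in promyelocytes in both kinds of RNA. They parted in granulocytes: whole cell miR-31 differed from myelocytes by -5.55, miR-146a by -1.94 and miR-342-3p by -1.26, whereas miR-10b was higher by 1.07 and miR-350 by 0.92.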
